A study of Danio rerio with 7 samples.

Results

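The genes described here are 7 markers of proliferation and the cell cycle, chosen by their Ensembl identifiers from the 25049 genes of the count table. They are pcna (ENSDARG00000054155), mcm5 (ENSDARG00000019507), mki67 (ENSDARG00000091150), ccnb1 (ENSDARG00000051923), cdk1 (ENSDARG00000087554), ccna2 (ENSDARG00000011094) and top2a (ENSDARG00000024488). All 7 passed the filter on low counts, which left 23716 genes to test. Poly(A) RNA of whole wild-type zebrafish larvae was sequenced, in 3 libraries from hypoxia (6% O2) and 4 libraries from normoxia (20.9% O2, the level of air). Both groups were exposed between 81 and 96 hours post-fertilization (hpf), each library was made from a pool of 30 larvae, and no mutant or drug was part of this comparison. A value per library is therefore an average over 30 animals and over all their tissues, and fewer dividing cells cannot be told apart from less of these mRNAs per dividing cell.

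A cell that is about to divide first loads MCM helicases onto its origins of replication, then copies its DNA in S phase, and then builds up cyclins and mitotic kinases through G2 until it enters mitosis (M). Many genes of this programme are transcribed only in cycling cells and in the phase in which their product is used, so their mRNA levels are widely read as markers of proliferation. In zebrafish larvae of this age, dividing cells are found in growing tissues such as the retina, brain, gut and skin.

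Total counts per library were 67083058 to 69920400 in hypoxia and 70275114 to 78235938 in normoxia. Values are given as CPM (counts per 1000000 counts of a library, its size scaled by TMM factors). These factors were 0.951 to 0.977 in hypoxia and 1.02 to 1.04 in normoxia. At these depths 3 counts correspond to 0.0383 to 0.0447 CPM before that scaling. The 7 genes had mean counts of 2372 (cdk1) to 13487 (mki67) per library. Levels are not compared between genes, because CPM is not corrected for gene length. Fold changes are log2 values of hypoxia over normoxia from edgeR's quasi-likelihood test, with p-values adjusted by the Benjamini-Hochberg method over all 23716 genes.

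All 7 genes were lower in hypoxia. Their mRNA levels stood at 61.6% (mcm5) to 67.5% (top2a) of the normoxia level, with a median log2 fold change of -0.64, against -0.0044 for all genes tested. At an adjusted p under 0.05, 7 of 7 were called lower, where 25.1% of all genes tested were called lower in hypoxia. With the further requirement of a log2 fold change below -0.6, the threshold of the study's methods, 5 of 7 were called, against 7.45% of all genes. The other two, mki67 and top2a, lay just short of that threshold at -0.59 and -0.57. The count of 5 was 7 without hypoxia replicate 1, 4 without hypoxia replicate 3, where ccna2 stood at -0.56, and 6 without normoxia replicate 1 or 3, where mki67 stood at -0.61 and -0.60. It was 7 with library size scaling and with cyclic loess, and 0 with the fold threshold placed inside the test. Among all genes, 1766 were called lower past the same threshold in the main fit. That number was 2266 without hypoxia replicate 1 and 1271 without hypoxia replicate 3. Without normoxia replicates 1 and 3 it was 1502 and 1699. It was 2484 with library size scaling, 1649 with cyclic loess and 167 with the threshold inside the test. In 7 of 7 genes every hypoxia library was below every normoxia library, which held for 26.5% of all genes. These changes were not among the largest of the table, since 6.09% (mcm5) to 9.71% (top2a) of tested genes had a lower fold change than they did.

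Among the S-phase genes, pcna encodes the sliding clamp that holds DNA polymerases on the template. Its level was 136, 145 and 133 CPM in hypoxia replicates 1 to 3, against 231, 219, 209 and 199.7 CPM in normoxia replicates 1 to 4. The means were 138 ± 6.37 CPM in hypoxia against 215 ± 13.6 CPM in normoxia (SD, n = 3 and 4), a log2 fold change of -0.64 (standard error 0.057, edgeR adjusted p = 2.6e-05). The groups were well separated, the highest hypoxia library lying 0.46 log2 units under the lowest normoxia library.

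The other S-phase gene, mcm5, encodes a subunit of the MCM2-7 helicase, which is loaded at origins and unwinds DNA ahead of the fork. It measured 50.6, 51.1 and 46.2 CPM in hypoxia, against 83.6, 82.2, 81.4 and 72.8 CPM in normoxia. Its log2 fold change was -0.70 with a standard error of 0.060 (edgeR adjusted p = 2.1e-05), the lowest of the 7. Normoxia replicate 4 was the lowest of its group for both S-phase genes, and it was still clear of all hypoxia libraries.

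Of the genes that peak in G2 and mitosis, cdk1 and ccnb1 encode the kinase and the cyclin of the complex that drives entry into mitosis. The cdk1 level was 26.2, 24.7 and 22.3 CPM in hypoxia, against 40.5, 39.9, 38.3 and 35.7 CPM in normoxia. The ccnb1 level was 27.8, 26.2 and 24.1 CPM in hypoxia, against 43.5, 42.3, 38.7 and 40.5 CPM in normoxia. In neither gene did the groups overlap. Both had a log2 fold change of -0.66, with standard errors of 0.066 for cdk1 and 0.061 for ccnb1 (edgeR adjusted p = 4.6e-05 and 3.1e-05). Among the 21 pairs of the 7 genes, cdk1 and ccnb1 had the smallest change in mean log2 ratio between the groups, 0.0010 log2 units. That change was smaller than the SD of the ratio between libraries, 0.016 in hypoxia and 0.070 in normoxia. It is the smallest value picked from 21, and the ratio overlapped between the groups in all 21 pairs.

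Cyclin A, the product of ccna2, partners with CDKs from S phase into G2, so the gene belongs to the G2/M genes only in part. Its level was 28.7, 27.7 and 24.4 CPM in hypoxia, against 43.2, 42.0, 40.8 and 39.8 CPM in normoxia, with a log2 fold change of -0.62 (standard error 0.061, edgeR adjusted p = 4.1e-05). It had the widest relative spread of the 7 within hypoxia, with a coefficient of variation of 8.25%, against 3.60% in normoxia.

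The last pair encode proteins that act on chromosomes. Topoisomerase II alpha, the product of top2a, untangles replicated DNA before the sister chromatids part, and Ki-67, the product of mki67, coats mitotic chromosomes and is present through the active phases of the cycle. The top2a level was 79.9, 71.9 and 71.2 CPM in hypoxia, against 109.9, 113.3, 106 and 111 CPM in normoxia, a log2 fold change of -0.57 (standard error 0.051, edgeR adjusted p = 2.7e-05). The mki67 level was 153, 136 and 141 CPM in hypoxia, against 209, 227, 212 and 217 CPM in normoxia, a log2 fold change of -0.59 (standard error 0.052, edgeR adjusted p = 2.3e-05). These were the smallest changes of the 7, and the normoxia libraries of top2a had the tightest spread, with a coefficient of variation of 2.60%.

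For each of the 7 genes on its own, an exact two-sided permutation test on mean CPM gave p = 0.0286, the smallest that 3 against 4 libraries allow (35 divisions). It rests on the same lack of overlap given above, which 26.5% of all genes tested had in this direction, so it is not separate support. Summed over the 7 genes, the level was 502, 482 and 462 CPM in hypoxia, against 761, 765, 726 and 716 CPM in normoxia. In the RefSeq annotation of a later assembly (GRCz12tu), pcna overlaps trim69, top2a overlaps samd14, mki67 overlaps a long non-coding RNA and cdk1 overlaps an unnamed protein-coding gene. Whether the authors counted reads by strand is not given in the sources used here, so those 4 values are uncertain to that extent. The same annotation lists no gene overlapping mcm5, ccnb1 or ccna2.

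**Figure D1:**
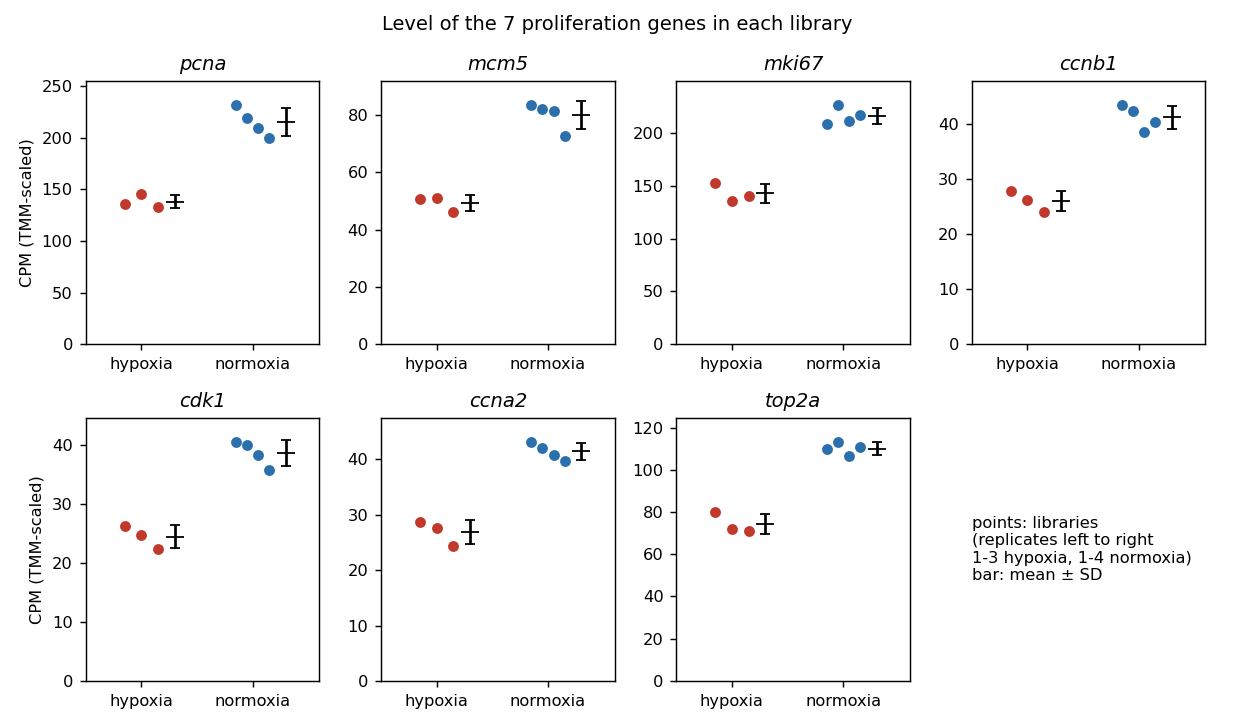
Level of each of the 7 genes in CPM after TMM scaling (y axis, from 0) in the 3 hypoxia and 4 normoxia libraries, 1 point a library, with the mean ± SD beside them. In every panel the hypoxia points lie below all normoxia points, for example at 133 to 145 CPM in hypoxia, against 199.7 to 231 CPM in normoxia for pcna.

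The next question was whether S-phase genes and G2/M genes moved by different amounts. The mean log2 CPM of pcna and mcm5 was 6.37, 6.43 and 6.29 in hypoxia, against 7.12, 7.07, 7.03 and 6.91 in normoxia, a difference of -0.67. The mean log2 CPM of mki67, ccnb1, cdk1, ccna2 and top2a was 5.59, 5.48 and 5.40 in hypoxia, against 6.14, 6.15, 6.07 and 6.07 in normoxia, a difference of -0.62. Each set of genes separated the groups, which follows from the separation already given for each of the 7 genes.

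The balance between the sets differed by less than the spread between libraries. Within a library, the S-phase mean exceeded the G2/M mean by 0.79, 0.95 and 0.90 log2 units in hypoxia, against 0.98, 0.91, 0.96 and 0.84 in normoxia. The averages were 0.88 ± 0.083 in hypoxia and 0.92 ± 0.061 in normoxia (SD, n = 3 and 4), a difference of -0.04, and the groups overlapped. This difference depended on hypoxia replicate 1: without that library it was 0.00022. No p is given for it, since it is a score over chosen genes.

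The log2 ratio of any one of the 7 genes to any other overlapped between hypoxia and normoxia in 21 of 21 pairs. The change of such a ratio was below 0.1 log2 units in size in 19 of 21 pairs. Its extremes were -0.13 for mcm5 relative to top2a and 0.07 for mki67 relative to ccnb1. The 21 pairs reuse the same 7 genes, and no such count is given for pairs of other genes with similar fold changes. These differences between genes were not tested.

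**Figure D2:**
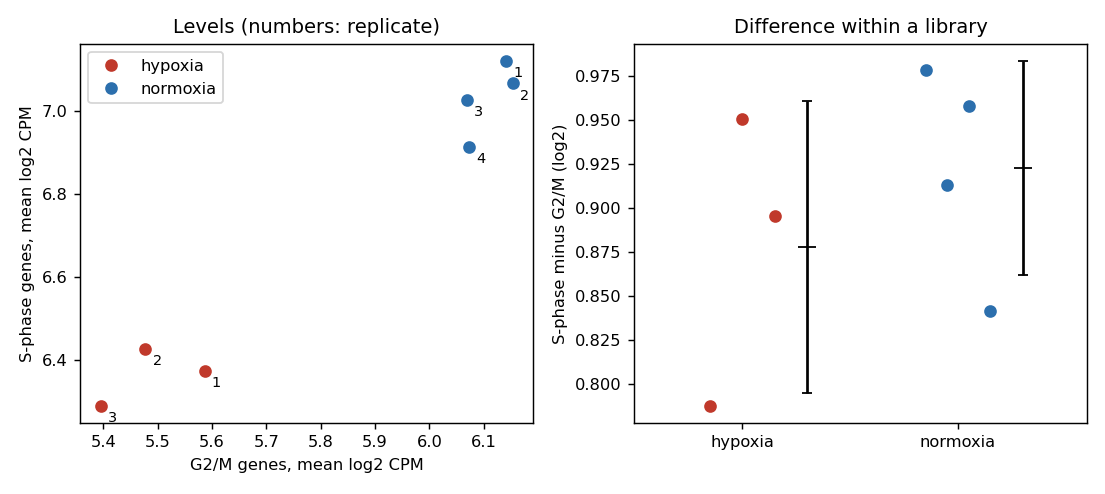
Left, mean log2 CPM of the S-phase genes (y axis) against that of the G2/M genes (x axis), 1 numbered point a library; right, S-phase mean minus G2/M mean within each library (log2 units), with the mean ± SD. The groups are far apart along both axes on the left and overlap on the right, at 0.79 to 0.95 in hypoxia and 0.84 to 0.98 in normoxia.

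The 3 hypoxia libraries were not equally far from normoxia. Averaged over the 7 genes, log2 CPM minus the normoxia mean was -0.56 in replicate 1, -0.62 in replicate 2 and -0.72 in replicate 3. The same average was 0.048, 0.041, -0.030 and -0.060 in normoxia replicates 1 to 4. Hypoxia replicate 3 was the farthest for 6 of 7 genes, the exception being mki67, for which hypoxia replicate 2 was lowest. For cdk1 the distances were -0.56, -0.64 and -0.79 in replicates 1 to 3, and for ccna2 they were -0.53, -0.58 and -0.76. Replicate 1 was nearest to normoxia for 5 of 7 genes.

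This grading was more even in the mean of the G2/M genes than in that of the S-phase genes. The mean distance of the G2/M genes was -0.52, -0.63 and -0.71 in replicates 1 to 3, and that of the S-phase genes was -0.66, -0.60 and -0.74. Not every G2/M gene stepped in this way: mki67 stood at -0.50, -0.67 and -0.62. In top2a (-0.46, -0.61 and -0.63) replicates 2 and 3 were close. For pcna (-0.66, -0.56 and -0.69) and mcm5 (-0.66, -0.64 and -0.79), replicate 2 was the nearest to normoxia. The whole range among hypoxia libraries was 0.13 (pcna) to 0.23 (cdk1) log2 units per gene, beside 0.091 (top2a) to 0.21 (pcna) among normoxia libraries. For pcna and mcm5 this range was narrower in hypoxia (0.13 and 0.15) than in normoxia (0.21 and 0.20). For each G2/M gene it was wider in hypoxia.

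The same 3 libraries were graded in the rest of the transcriptome. On the first principal component of the 23709 other tested genes, which held 61.7% of the variance, hypoxia replicates 1, 2 and 3 lay 48.3, 66.5 and 81.1 units from the normoxia mean, and the normoxia libraries lay between -10.2 and 5.82. Among the 5950 genes called lower, replicate 3 was the lowest hypoxia library for 4144 (69.6%), replicate 2 for 1150 (19.3%) and replicate 1 for 656 (11.0%). Replicate 3 standing farthest for most of the 7 genes was thus the common pattern among genes called lower. Most of the liver and gut markers were graded as well. The liver transferrin gene tfa was at 419, 214 and 126 CPM in hypoxia replicates 1 to 3. The level of vil1, which encodes villin of the gut brush border, was 125, 77.7 and 64.4 CPM. That of fabp2, a fatty acid binding protein of the gut, was 98.5, 76.0 and 59.0 CPM. The liver marker ahsg1, with a mean count of 43.1, was lowest in replicate 2, at 0.415, 0.235 and 0.357 CPM. Replicate numbers have no order of their own, and the part of these tissues in the grading was not tested.

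**Figure D3:**
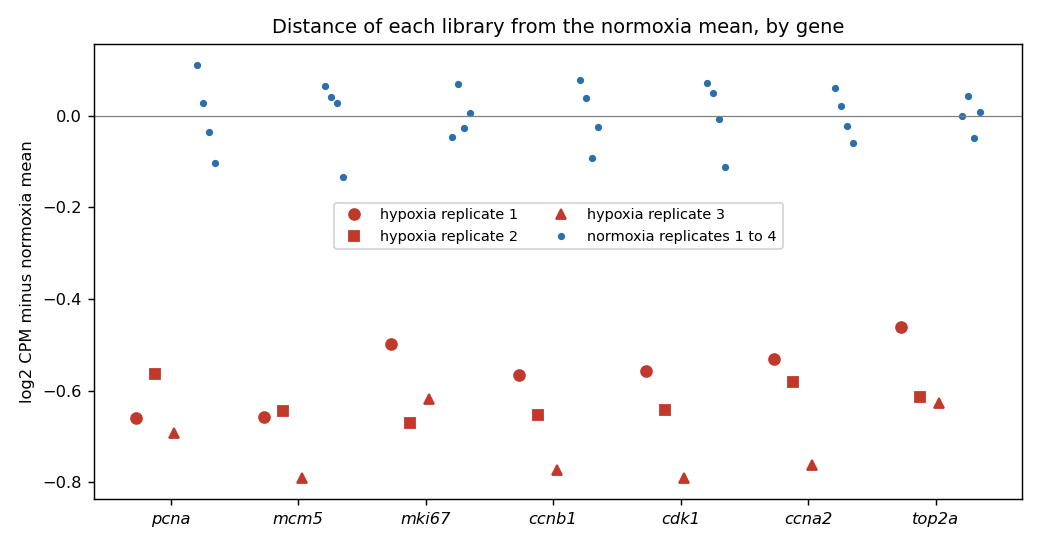
Distance of each library from the normoxia mean (log2 CPM, y axis) for each of the 7 genes (x axis), with a marker shape for each hypoxia replicate and small points for the 4 normoxia libraries. Hypoxia replicate 3 is the lowest point for 6 of 7 genes, and the nearest hypoxia point to normoxia is at -0.46, for top2a in replicate 1.

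Other genes of the cell cycle were read from 7 lists by role, which together held 144 genes tested. Of these, 123 (85.4%) were called lower in hypoxia, where 25.1% of all genes were, 6 were called higher, where 24.6% of all genes were, and 15 were not called. A log2 fold change below -0.6 was reached by 42 of the 144 among those called lower, where 7.45% of all genes reached it. Their median log2 fold change was -0.53. Leaving aside the list of CDK inhibitors and arrest genes, 122 of 132 (92.4%) were called lower.

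Replication licensing, which loads MCM helicases at origins, and origin firing together held 23 tested genes. Of these, 19 were called lower and none higher (median -0.56). The lowest were mcm10, an origin firing factor, with 2.47 ± 0.223 CPM in hypoxia against 4.32 ± 0.360 CPM in normoxia (log2 fold change -0.80), and cdc6, a helicase loader, with 8.38 ± 0.359 CPM in hypoxia against 14.6 ± 1.57 CPM in normoxia (-0.80). Those called with the smallest changes were dbf4, the activating subunit of the CDC7 kinase (-0.35), and orc5, a subunit of the origin recognition complex (-0.28). The orc5 call was lost without hypoxia replicate 3 (-0.24, edgeR adjusted p = 0.068).

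The partners of mcm5 in the helicase were singled out after their values were seen. Changes were similar for mcm2 (-0.66), mcm3 (-0.71), mcm4 (-0.54) and the mcm6 gene ENSDARG00000057683 (-0.62), all called lower. The gene mcm7 was not called, at 77.6, 94.6 and 83.1 CPM in hypoxia, against 106.9, 102, 88.0 and 93.6 CPM in normoxia. Its groups overlapped and its log2 fold change was -0.20 (edgeR adjusted p = 0.058). It was called lower without hypoxia replicate 2 (edgeR adjusted p = 0.019), without normoxia replicate 3 (0.030), with library size scaling (0.0077), with DESeq2 (0.039), with cyclic loess and limma (0.018), with at least 10 counts in every library (0.049) and with the replicate number as a block (0.029). A further identifier that bears the name mcm6, ENSDARG00000033231, had a mean count of 26.1 and a log2 fold change of -0.01 (edgeR adjusted p = 0.99). The 2 other uncalled genes of the licensing and firing list were gmnn and orc2. The gmnn gene encodes geminin, an inhibitor of licensing (-0.11). The orc2 gene stood at -0.25 (edgeR adjusted p = 0.054, and 0.037 without hypoxia replicate 2). The count of 19 called lower in that list was 18 to 21 without single libraries. It was 22 with library size scaling, where mcm7, orc2 and gmnn were called lower too. With at least 10 counts in every library it was 21, where mcm7 and orc2 were called lower too.

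DNA synthesis and nucleotide supply held 30 tested genes, and all 30 were called lower (median -0.53). The lowest was tyms, thymidylate synthase, with 14.8 ± 1.21 CPM in hypoxia against 26.7 ± 1.18 CPM in normoxia, a log2 fold change of -0.85 (edgeR adjusted p = 1.2e-05). It was followed by chaf1b, a subunit of the chromatin assembly factor that works at the fork with the PCNA clamp (-0.79). The smallest changes were those of pole2, a subunit of DNA polymerase epsilon (-0.27), and dut, which removes dUTP from the nucleotide pool (-0.18). Both lost their call without hypoxia replicate 3 (edgeR adjusted p = 0.070 for pole2 and 0.064 for dut), and pole2 also without normoxia replicate 1 (0.051).

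The G1 and G1/S regulators were more mixed. Of 18 tested, 13 were called lower, 3 higher and 2 not (median -0.44). The lowest were e2f7, a repressor of E2F target genes (-0.67), and rb1, the retinoblastoma protein that holds E2F factors in check (-0.67, with 16.6 ± 0.923 CPM in hypoxia against 26.4 ± 1.72 CPM in normoxia). The 3 called higher were rbl2, which encodes the RB family protein p130 known from mammals for repressing cell cycle genes in resting cells (0.33, with 33.1 ± 1.12 CPM in hypoxia against 26.3 ± 0.727 CPM in normoxia), mycn, a MYC family transcription factor (0.17), and ccnd1, cyclin D1 (0.13). The count of 3 was 1 with library size scaling, and also 1 without hypoxia replicate 2 (edgeR adjusted p = 0.053 for mycn and 0.062 for ccnd1) or without hypoxia replicate 3 (0.055 and 0.061). The ccnd1 call was also lost without normoxia replicate 3 (0.058), without normoxia replicate 4 (0.052), with the replicate number as a block (0.061) and with cyclic loess and limma (log2 fold change 0.06, limma adjusted p = 0.24). Those not called were e2f4 and ccnd3, the cyclin D3 gene, whose mean count was 13.9. With library size scaling 14 of these regulators were called lower, e2f4 among them.

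Of 20 tested G2/M kinases, cyclins and checkpoint genes, 19 were called lower and none higher (median -0.55). The lowest were mad2l1, a spindle checkpoint protein, with 10.2 ± 0.848 CPM in hypoxia against 17.8 ± 1.44 CPM in normoxia (-0.81), and pttg1, securin, which guards sister chromatid cohesion (-0.76). At the other end were cdc25b, a phosphatase that activates CDK1 (-0.29), and foxm1, a transcription factor of G2/M genes (-0.28). The gene not called was pkmyt1, which encodes a kinase that inhibits CDK1 (0.04, edgeR adjusted p = 0.70). The other cyclins B, ccnb2 (-0.48) and ccnb3 (-0.45), were called lower beside ccnb1.

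Genes of the spindle, kinetochore, condensin and cytokinesis were called lower in 27 of 27 cases (median -0.55). The lowest was kif20a, a kinesin of cytokinesis, with 11.6 ± 1.72 CPM in hypoxia against 20.5 ± 0.674 CPM in normoxia (-0.82), followed by ncapd2, a condensin subunit (-0.67). The smallest changes were those of hmmr (-0.32) and nusap1 (-0.27), which encode spindle-associated proteins. Of the DNA damage response and repair genes, 14 of 14 were called lower (median -0.51). They ran between tipin (-0.69) and exo1 (-0.63), a fork protection factor and an exonuclease, at the low end, and atm (-0.27) and timeless (-0.22), a damage-sensing kinase and the partner of tipin, at the high end.

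The list of CDK inhibitors and growth arrest genes held 12 tested genes, of which 1 was called lower, 3 higher and 8 not (median 0.03). The share called higher was close to the 24.6% of all genes, and the share called lower was below the 25.1% of all genes. Those called higher were ddit4, ccng2 and btg1. The ddit4 gene, which is known to be induced by hypoxia in mammalian cells and restrains mTORC1 signalling, measured 50.4, 58.3 and 53.2 CPM in hypoxia, against 18.8, 19.7, 19.9 and 21.2 CPM in normoxia (log2 fold change 1.44, standard error 0.060, edgeR adjusted p = 2.2e-07). It was the only gene of the 7 lists past a log2 fold change of 0.6 upwards, which 3.07% of all genes passed. The cyclin G2 gene ccng2, whose product is associated with cell cycle arrest in mammalian cells, had 75.8 ± 1.51 CPM in hypoxia against 52.7 ± 1.73 CPM in normoxia (0.52), and btg1, an antiproliferative factor, had 278.9 ± 0.744 CPM in hypoxia against 228 ± 8.74 CPM in normoxia (0.29). The p21 gene cdkn1a, a widely studied CDK inhibitor, was at 12.6, 11.3 and 9.95 CPM in hypoxia, against 10.1, 9.56, 13.4 and 12.1 CPM in normoxia. These values overlapped fully (log2 fold change 0.0029, edgeR adjusted p = 0.99). The standard error of that fold change, 0.12, leaves room for a small change of either sign.

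**Figure D4:**
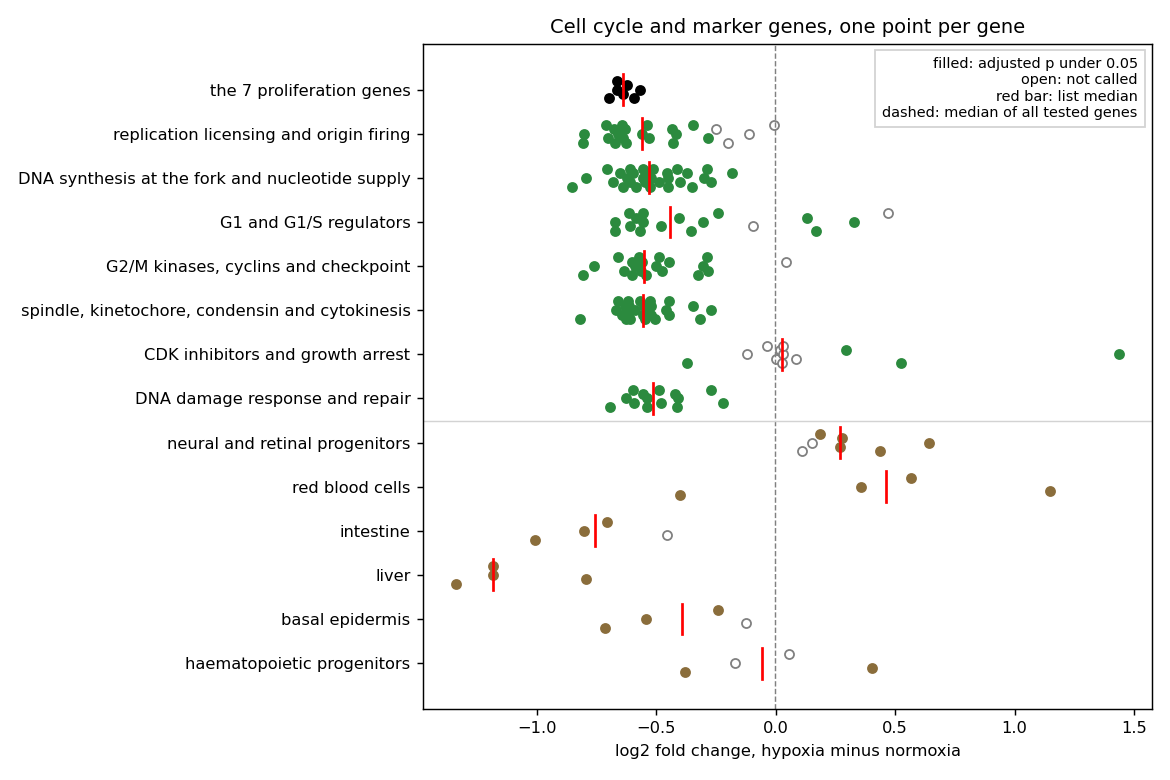
Log2 fold change of hypoxia over normoxia (x axis) for the 7 genes, the 7 cell cycle lists and 6 lists of cell type markers (rows), 1 point a gene, filled where the adjusted p was under 0.05, with a red bar at each list's median and a dashed line at the median of all tested genes. The medians of 6 cell cycle lists lie between -0.56 and -0.44, and that of the CDK inhibitor and arrest list is at 0.03.

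Markers of tissues that hold or lack dividing cells moved as well, in different directions. Of all genes tested, 25.1% were called lower and 24.6% higher. Among 7 markers of neural and retinal progenitors, none was called lower and 5 were called higher (median 0.27), with a summed level of 478 to 545 CPM in hypoxia, against 438 to 449 CPM in normoxia. Thus sox2, a transcription factor of neural progenitors, was higher in hypoxia (0.27), as were sox3 (0.28), nes (0.19) and the Notch target her4.1 (0.64). In the same libraries pcna and its companions were lower. Most of the summed level was gfap, at 291, 318 and 355 CPM in hypoxia, against 286, 285, 295 and 290 CPM in normoxia. Its groups overlapped and it was not called (0.15, edgeR adjusted p = 0.056), nor was rx2 (0.11). The 4 intestine markers (3 called lower, median -0.76) summed to 176 to 315 CPM in hypoxia, against 383 to 451 CPM in normoxia, and the 4 liver markers (all called lower, median -1.18) to 176 to 528 CPM in hypoxia, against 729 to 904 CPM in normoxia.

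The 4 basal epidermis markers (3 called lower, median -0.39) summed to 13450 to 15868 CPM in hypoxia, against 15918 to 18323 CPM in normoxia. Most of that sum was krt4, a keratin that is also a marker of the superficial layer (log2 fold change -0.24), and krt5, which was not called, while tp63 (-0.54) and cdh1 (-0.71) were lower at far smaller levels. The 4 red blood cell markers (3 called higher and 1 lower, median 0.46) summed to 472 to 684 CPM in hypoxia, against 361 to 471 CPM in normoxia, which nearly met. Most of that sum was hbae3, at 627, 647 and 441 CPM in hypoxia, against 442, 396, 372 and 334 CPM in normoxia. The groups of hbae3 and alas2 overlapped, while those of hbae1.1 (higher) and gata1a (lower) did not. The 4 markers of haematopoietic progenitors (1 called higher and 1 lower, median -0.06) summed to 61.9 to 63.8 CPM in hypoxia, against 57.3 to 61.6 CPM in normoxia. Their calls were at the shares of all genes in both directions, and these sums nearly met. No tested marker was at 0 in any library. Thus some tissue markers differed between the groups in the libraries in which the 7 genes were lower, and their part in that result was not tested.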

How the data were processed

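Before deposit, the authors trimmed the reads (Trimmomatic 0.39), aligned them to the GRCz11 assembly (STAR 2.7.10) and assigned them to genes (featureCounts 2.0.7). The deposited values are whole-number counts with no normalization, and no gene totals under 10 over the 7 libraries. Groups and replicate numbers were taken from the sample labels, and the study describes the pools as biological replicates. Replicates of a group differed by more than sampling noise (chi-square per degree of freedom 7.04 to 20.9 in 9 pairs).

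The counts were compared by the quasi-likelihood test of edgeR 4.0.16 under R 4.3.3, after filterByExpr and TMM scaling. Each standard error was obtained as the absolute log2 fold change over the square root of F. Log2 CPM values used a prior of 2 counts. Simulated counts with known changes served as a check of the code. Alternative settings covered the tool (DESeq2 1.42.0, or cyclic loess with limma 3.58.1), the scaling (DESeq2 size factors, upper-quartile factors, library size alone), the filter (none, or 10 counts or more in all libraries), the fold threshold moved into the test, a replicate block, and removal of each library in turn.

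Members, lists and tests were chosen with earlier results of these data known. A name table matched 23250 of the 25049 identifiers and held 142 of 162 listed symbols, of which mcm6 and rrm2 each stand for 2 identifiers. The genes named are the 7, in each list the 2 highest and 2 lowest fold changes among called genes whose mean count reached 50, and the 2 genes with the highest and the 2 with the lowest (most negative) correlation with the 7. Others were named after their values were seen: mcm2, mcm3, mcm4, mcm6, mcm7, ccnb2, ccnb3, ccnd1, cdkn1a, gmnn, orc2, e2f4, ccnd3, pkmyt1 and the markers named above. Not all uncalled genes of the lists are named. Promoter motifs and other sequences were not analysed here. Some genes that the rule names are not reported here. The floor of 3 counts covers counting error only.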

Additional observations from a re-analysis of the deposited data

Results flagged for a closer look

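Of 40 values examined within the normoxia group, 1 stood apart, where chance gives about 2. The pole2 level, that of a DNA polymerase epsilon subunit, was 6.36 CPM in normoxia replicate 1, against 5.48, 5.58 and 5.61 CPM in the other normoxia libraries, a gap of 0.856 of the whole range.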

How the results depend on the processing

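The fold changes of the 7 genes kept their direction and call in 105 of 105 alternative values (highest adjusted p 0.00062). All were lowest with library size only, which moved the median of all genes by -0.10 (pcna -0.74, top2a -0.66). Leaving out single libraries gave -0.68 to -0.60 for pcna, -0.74 to -0.66 for mcm5 and -0.62 to -0.54 for top2a. In those fits 4 to 7 of the 7 genes were called below -0.6, among 1271 to 2266 of all genes. With the threshold inside the test, 0 of the 7, 167 lower and 133 higher genes were called past 0.6. Library size only gave 8072 genes lower and 3995 higher, 2484 and 427 of them past 0.6 (5950, 5840, 1766 and 729 with TMM), and 1 G1 and G1/S regulator higher. Leaving out single libraries gave 1 to 3 such regulators, and -0.081 to 0.00022 for the S-phase minus G2/M difference, reversed without hypoxia replicate 1. Under library size only the mean distances of hypoxia replicates 2 and 3 were -0.74 and -0.82. Of 765 values for 51 other genes of the lists and of the likeness comparison, 14 lost and 12 gained a call. None changed sign with a call in either fit, and sign changes of genes called in neither fit were not counted. Same-numbered libraries deviated together only weakly (correlations 0.19, 0.052 and 0.021). With no such value for libraries known to be matched, this cannot decide whether the numbers pair them. With the replicate number as a block, 7 of the 7 genes stayed lower, 5 past 0.6 (pcna -0.67, mcm5 -0.74, mki67 -0.59, ccnb1 -0.67, cdk1 -0.70, ccna2 -0.65, top2a -0.57), among 6009 genes lower and 5866 higher. Of those 6009 and 5866 genes, 1873 and 827 were past 0.6.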

Other observations

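Likeness to the 7 genes was measured as Pearson's r, over the 7 libraries, between a gene's log2 CPM and the mean standardised log2 CPM of the 7. The highest r belonged to SDF2L1 (0.999, log2 fold change -0.15), with 30.7 ± 0.462 CPM in hypoxia against 34.0 ± 0.314 CPM in normoxia, and CTH (0.999, -0.36), with 36.0 ± 1.34 CPM in hypoxia against 46.0 ± 0.698 CPM in normoxia. The most opposite were ENSDARG00000117519 (-0.999, log2 fold change 0.71) and KCTD9 (-0.999, 0.29). An r over 0.95 was reached by 96 of 142 cell cycle list genes (67.6%) and by 1920 of all 20596 genes compared (9.32%). The 7 libraries fall into 2 separate groups, so r mostly reflects the contrast between them, and it is given as a description.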
